A study of Mus musculus with 4 samples.

Results

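A set of 43 genes of endoplasmic reticulum (ER) folding, translocation and quality control was followed in liver RNA of wild-type (WT) mice and of mice without SREBP1c (KO), the insulin-responsive factor of hepatic fatty acid synthesis. The genes were chosen by name, through the gene symbols of the deposited table. Earlier results of these data, among them the difference of Derl3, were known when the set was made. The set falls into 4 roles: 20 chaperones and folding enzymes, 8 genes of the translocon and signal peptidase, 12 genes of ER-associated degradation (ERAD) and 3 sensor genes. All 43 were found among the 23920 genes of the table, and all 43 reached the mean of 1 FPKM that 9820 genes reached. FPKM, the fragments per kilobase of transcript scaled to the mapped fragments of a library, was summed over the transcript rows of a gene, and 9 of the 43 have several rows. There were 4 libraries, 2 WT (genotype SREBP1c WT) and 2 KO (genotype SREBP1c KO), all from livers of male C57BL/6 mice aged 12 weeks that had fasted for 24 h and then had food again for 12 h. How the knockout was made, and whether each library came from another animal, is not given in the sources used here, so a p-value here reflects the spread of these 4 libraries alone, and that spread may be technical. Paired values are given in the order replicate 1, replicate 2.

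Secreted and membrane proteins enter the ER through the Sec61 translocon, lose their signal peptide to signal peptidase and fold with the help of chaperones and disulfide isomerases. Proteins that fail to fold are drawn back to the cytosol and degraded, which is ERAD. When unfolded proteins accumulate, the sensors IRE1 (Ern1), ATF6 and PERK start the unfolded protein response: IRE1 cuts a short intron out of Xbp1 mRNA, and spliced XBP1 and cleaved ATF6 raise chaperone and ERAD genes. Hepatocytes secrete most plasma proteins and run this machinery at a high level. SREBP proteins are themselves made in the ER membrane and are released by the same site-1 and site-2 proteases that cleave ATF6.

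The letters that link many of these genes stand in their promoters. The ER stress element (ERSE), bound by ATF6 and XBP1 together with the factor NF-Y, was searched on both strands as CCAAT, 9 bases of any kind and CCACG, in windows of 300 bases that run from 250 before to 50 after a transcription start (RefSeq, build GRCm38.p6, the mm10 assembly). A window was available for 36 of the 43 genes. The element was found in 9 of the 36 and in 0.137% of the 27025 genes with a window. The shorter ERSE-II, searched as ATTGG, 1 free base and CCACG, was found in Herpud1 and Dnajb11, and in 0.0444% of all genes. The element UPRE, TGACGTGG, was found in Vcp, Txndc5 and Txndc11, and in 0.714% of all genes. A match is a description of letters and shows no binding, and no match says only that these letters are not in the window. The ERSE sites and the ERSE-II of Herpud1 are printed below 5′ to 3′ in the orientation of the motif. Fixed letters are in capitals, free letters in lower case, and positions are counted from the transcription start. The sites are shown because the same letters recur in genes that behaved differently. The ERSE-II of Dnajb11 and the UPRE sites are not printed.
Derl3 (−156 to −138): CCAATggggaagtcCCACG
Hspa5 (−65 to −47): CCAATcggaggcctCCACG
Hsp90b1 (−212 to −194): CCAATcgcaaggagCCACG
Hsp90b1 (−107 to −89): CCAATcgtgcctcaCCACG
Calr (−162 to −144): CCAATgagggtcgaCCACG
Canx (−145 to −127): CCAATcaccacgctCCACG
Pdia6 (−98 to −80): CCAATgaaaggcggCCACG
Dnajc3 (−105 to −87): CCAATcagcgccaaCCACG
Creld2 (−126 to −108): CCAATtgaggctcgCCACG
Syvn1 (−44 to −26): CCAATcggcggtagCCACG
Herpud1 (−52 to −42, ERSE-II): ATTGGgCCACG

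For Derl3, the gene with the largest difference of the 43, the element lies in the reverse orientation at chr10:75893242-75893260. The 250 bases before its start (chr10:75893148-75893397, plus strand, GRCm38.p6) are shown with the element in capitals. They are followed by those of Hspa5 (chr2:34771840-34772089, plus strand), the classical target of the element, and of Herpud1 (chr8:94386179-94386428, plus strand), with its ERSE-II in capitals.
Derl3: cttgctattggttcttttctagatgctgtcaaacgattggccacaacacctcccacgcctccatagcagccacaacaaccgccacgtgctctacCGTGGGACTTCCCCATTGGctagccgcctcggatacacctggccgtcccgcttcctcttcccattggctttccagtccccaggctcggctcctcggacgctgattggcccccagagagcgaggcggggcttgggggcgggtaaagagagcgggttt
Hspa5: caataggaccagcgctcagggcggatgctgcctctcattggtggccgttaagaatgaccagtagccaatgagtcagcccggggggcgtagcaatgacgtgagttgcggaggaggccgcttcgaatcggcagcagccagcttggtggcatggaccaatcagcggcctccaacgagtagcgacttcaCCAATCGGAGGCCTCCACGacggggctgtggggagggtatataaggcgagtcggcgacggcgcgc
Herpud1: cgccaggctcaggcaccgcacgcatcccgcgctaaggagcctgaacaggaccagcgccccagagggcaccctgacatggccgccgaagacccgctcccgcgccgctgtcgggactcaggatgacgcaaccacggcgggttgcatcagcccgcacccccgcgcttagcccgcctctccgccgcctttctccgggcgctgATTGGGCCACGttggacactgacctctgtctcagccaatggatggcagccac

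Srebf1, the targeted gene (chromosome 11, 60199084 to 60224186), measured 63.7 and 58.2 FPKM in WT against 8.63 and 6.97 in KO. It fell in KO by 2.82 on the log2(FPKM + 1) scale (SE 0.13, limma adjusted p = 0.00172). With WT replicate 1 left out the adjusted p of Srebf1 was 0.136 (difference −2.76), and with WT replicate 2 left out it was 0.0923 (−2.88). Of the hepatocyte markers, Apoa1 lay between 7619 and 8880 FPKM, while Alb was listed at 0 in all libraries, so a 0 in this table is not read as absence. Of the 8 hepatocyte markers, 3 were lower in both KO libraries (16.4% of all genes) and 1 was higher (22.4% of all genes). Cps1, 1 of the 3 and named after its values were seen, measured 620 and 621 FPKM in WT against 362 and 400 in KO. Hnf4a, the higher one, measured 120 and 106 FPKM in WT against 121 and 143 in KO. KO replicate 2 differed from the rest in its marker genes. The summed level of 24 acute phase genes was 15868 and 19954 FPKM in WT, 13755 in KO replicate 1 but 34620 in KO replicate 2, where all 24 were highest. The 11 Kupffer cell and macrophage markers were also all highest there, with sums of 178 and 148 FPKM in WT, 153 in KO replicate 1 but 251 in KO replicate 2. Of 9 neutrophil markers 8 were highest in KO replicate 2 (31.6% of all genes), but 7 of the 9 had a mean under 1 FPKM. Of 10 endothelial markers 7 were highest there, with sums of 63.0 and 66.0 FPKM in WT, 69.5 in KO replicate 1 and 81.6 in KO replicate 2. In whole liver, more cells of a type and more RNA per cell cannot be told apart.

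**Figure D1:**
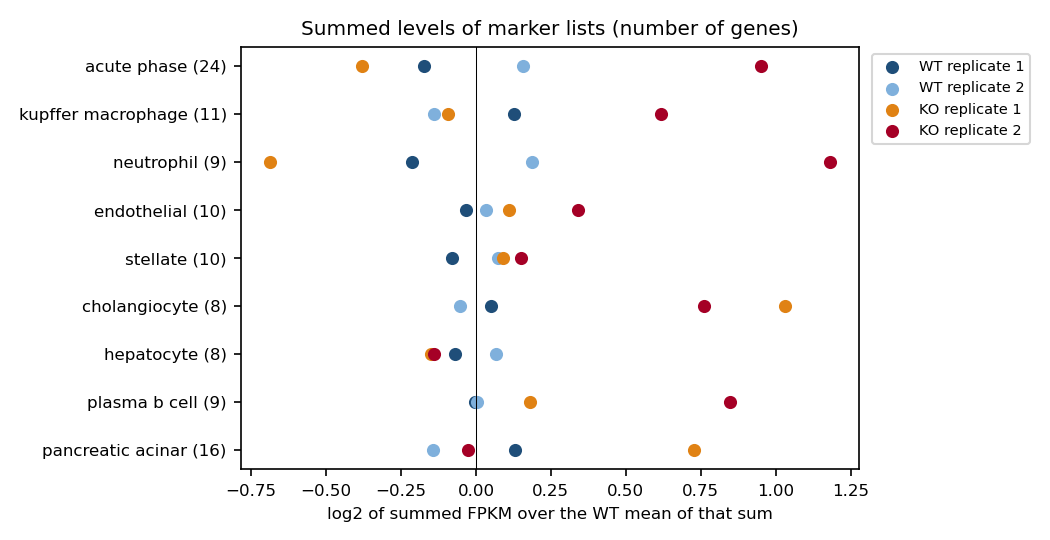
Summed FPKM of each marker list over the WT mean of that sum (x axis, log2) for the 4 libraries (points), with the number of genes in parentheses. KO replicate 2 lies to the right for acute phase, Kupffer cell and macrophage, and neutrophil genes, and by less for endothelial genes. Of the neutrophil genes, 7 of 9 had a mean under 1 FPKM. Plasma and B cell genes, each under 1 FPKM, also lie to the right in KO replicate 2, pancreatic acinar genes do in KO replicate 1, and cholangiocyte genes do in both.

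No gene of the set passed the limma test of KO against WT over all 9820 genes (0 of 43; adjusted p from 0.112 to 0.999), against 0.0713% of all genes. At an unadjusted p under 0.05, 3 of the 43 were higher and 0 lower, namely Derl3, Sdf2l1 and Dnajc10, against 4.5% and 3.25% of all genes. Derl3 was included with its difference in these libraries already known, so the counts here and below that include it are descriptions. The median log2 difference of the 43 was 0.12, against 0.02 for all genes tested, with 34 positive and 9 negative, while 5361 of the 9820 genes were positive. Without KO replicate 2 the median was −0.05, and 20 of the 43 turned sign. Both KO libraries lay above both WT libraries for 10 of the 43 (22.4% of all genes) and below them for 1, Vcp (16.4% of all genes).

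The KO libraries stood apart from each other. The 43 genes had a median distance from the WT mean of −0.05 for KO replicate 1 but 0.21 for KO replicate 2, against 0.01 and 0.02 for all genes. KO replicate 2 was above both WT libraries for 36 of the 43 (41.6% of all genes) and was the highest of the 4 libraries for 34 (31.6% of all genes), and it was below both for 3 (33.9% of all genes). KO replicate 1 was above both WT libraries for 11 (39.1% of all genes), below both for 18 (32.8% of all genes) and the lowest of the 4 for 17 (23.4% of all genes). KO replicate 2 was above KO replicate 1 for 38 of the 43 (50.5% of all genes), while WT replicate 1 was above WT replicate 2 for 28 (59.6% of all genes). All 20 chaperones and folding enzymes, 6 of the 8 translocation genes, 10 of the 12 ERAD genes and 2 of the 3 sensor genes had more FPKM in KO replicate 2 than in KO replicate 1. At least 1.5-fold above the WT mean and outside the WT range were 6 genes in KO replicate 2 (2.71% of all genes), namely Derl3, Herpud1, Creld2, Syvn1, Sdf2l1 and Dnajc10, and 1 gene, Derl3, in KO replicate 1 (1.33% of all genes). None of the 43 was that far below WT in either KO library (1.35% of all genes in KO replicate 1, 2.29% in KO replicate 2). The median over the 43 of WT replicate 1 minus WT replicate 2 was 0.06, and that of KO replicate 2 minus KO replicate 1 was 0.24.

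**Figure D2:**
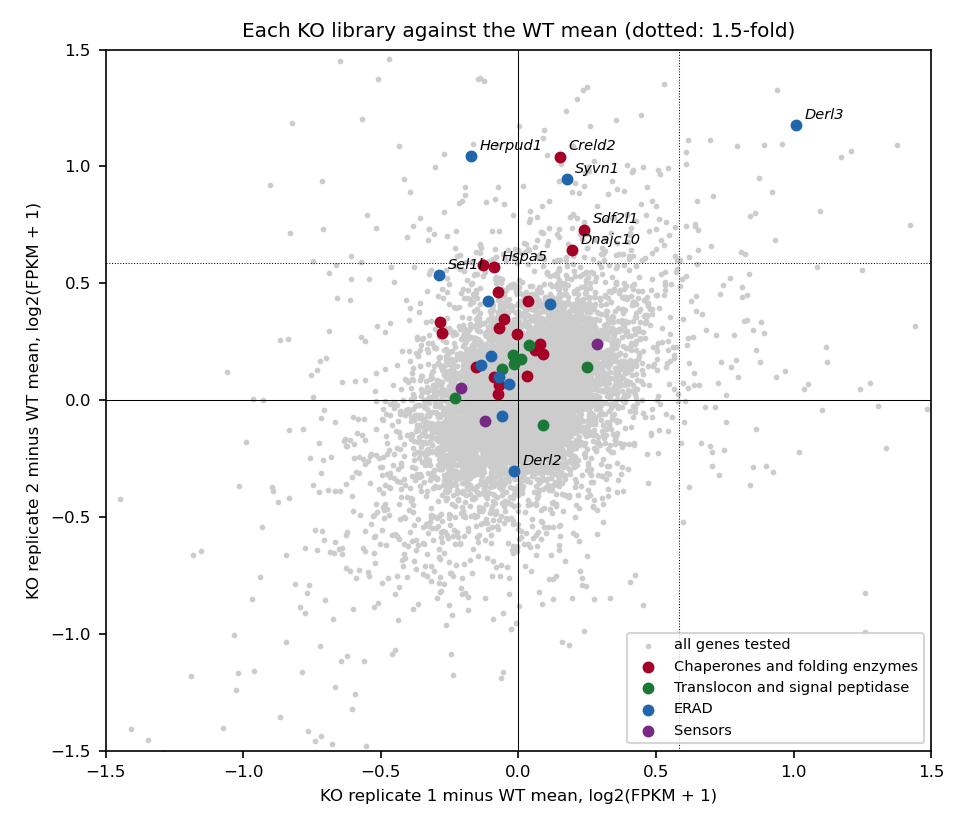
Difference of KO replicate 1 (x axis) and of KO replicate 2 (y axis) from the WT mean on log2(FPKM + 1), for the 43 genes by role (coloured) and for all genes tested (grey). Dotted lines mark 1.5-fold, and 70 genes beyond 1.5 log2 units on either axis are not drawn. Derl3 is high on both axes, while Herpud1, Creld2, Syvn1, Sdf2l1 and Dnajc10 are high only on the y axis.

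The limma test with KO replicate 1 left out, in which the lone KO library is assumed to vary like the WT pair, called 5 of the 43, all higher in KO (3.12% of all genes were called). They were Derl3 (adjusted p = 0.00787), Herpud1 (0.00729), Syvn1 (0.00787), Sdf2l1 (0.0212) and Creld2 (0.0399). With KO replicate 2 left out, 1 of the 43 was called, Derl3 (adjusted p = 0.0265; 1.19% of all genes were called). Without WT replicate 1 or WT replicate 2 none was (0.0102% and 0.0407% of all genes were called). The acute phase and macrophage markers above moved with KO replicate 2 too, and their part in these differences was not tested. These fits share the WT libraries.

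Among the chaperones and folding enzymes none passed, 17 of 20 had a positive difference, and the median was 0.14. The list ranged from 8.36 FPKM for Dnajc10 to 1151 FPKM for Calr (means over the 4 libraries). Hspa5 encodes BiP, the main Hsp70 chaperone of the ER and a target of the unfolded protein response. Hspa5 (chromosome 2, 34772090 to 34776529) measured 606 and 504 FPKM in WT against 519 and 821 in KO. Its KO replicate 1 lay inside the WT range and its KO replicate 2 was 1.48-fold above the WT mean (log2 difference over the groups 0.24, SE 0.24, limma adjusted p = 0.852).

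Sdf2l1, a partner of the BiP cycle, had the smallest p of the chaperones. It measured 110 and 96.2 FPKM in WT against 122 and 172 in KO, or 103 ± 10.1 against 147 ± 35.1 (SD, n = 2 each). The log2 difference was 0.48 (SE 0.19, limma adjusted p = 0.625), with both KO libraries above both WT libraries. Dnajc10 encodes ERdj5, a reductase that opens disulfide bonds of ERAD clients. It measured 6.68 and 7.23 FPKM in WT against 8.11 and 11.4 in KO (log2 difference 0.42, adjusted p = 0.627), again without overlap. Creld2, a stress-inducible disulfide isomerase gene, overlapped, with 110 and 71.7 FPKM in WT against 98.6 and 184 in KO (0.60, SE 0.33, adjusted p = 0.716). Dnajc3, the BiP cochaperone P58IPK, measured 74.3 and 72.8 FPKM in WT against 75.5 and 99.1 in KO, so that KO replicate 1 was just above WT.

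Other BiP-linked genes followed the same order of KO libraries. Hyou1, the nucleotide exchange factor of BiP, measured 91.9 and 73.7 FPKM in WT against 75.2 and 123 in KO. Pdia4, a disulfide isomerase, measured 194 and 176 FPKM in WT against 175 and 255 in KO, and Dnajb9, which encodes ERdj4, measured 54.2 and 54.9 FPKM in WT against 44.6 and 69.1 in KO. In KO replicate 1 each of these lay inside or below the WT range, and in KO replicate 2 each was above it. Hsp90b1, which encodes the ER Hsp90 GRP94, measured 713 and 541 FPKM in WT against 512 and 758 in KO, with group means of 627 and 635. The lectin chaperones overlapped closely. Calr, which encodes calreticulin and was the most abundant of the 43 genes, measured 1227 and 1078 FPKM in WT against 1095 and 1205 in KO. Its membrane relative Canx measured 121 and 106 FPKM in WT against 107 and 115 in KO. P4hb, the founding disulfide isomerase, measured 815 and 841 FPKM in WT against 863 and 960 in KO. Of the remaining chaperones, Ppib and Txndc5 were also higher in both KO libraries, by folds of 1.11 and 1.12 of the group means, and Pdia3, Pdia6, Manf, Dnajb11, Uggt1 and Txndc11 overlapped, with folds from 1.00 to 1.12.

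**Figure D3:**
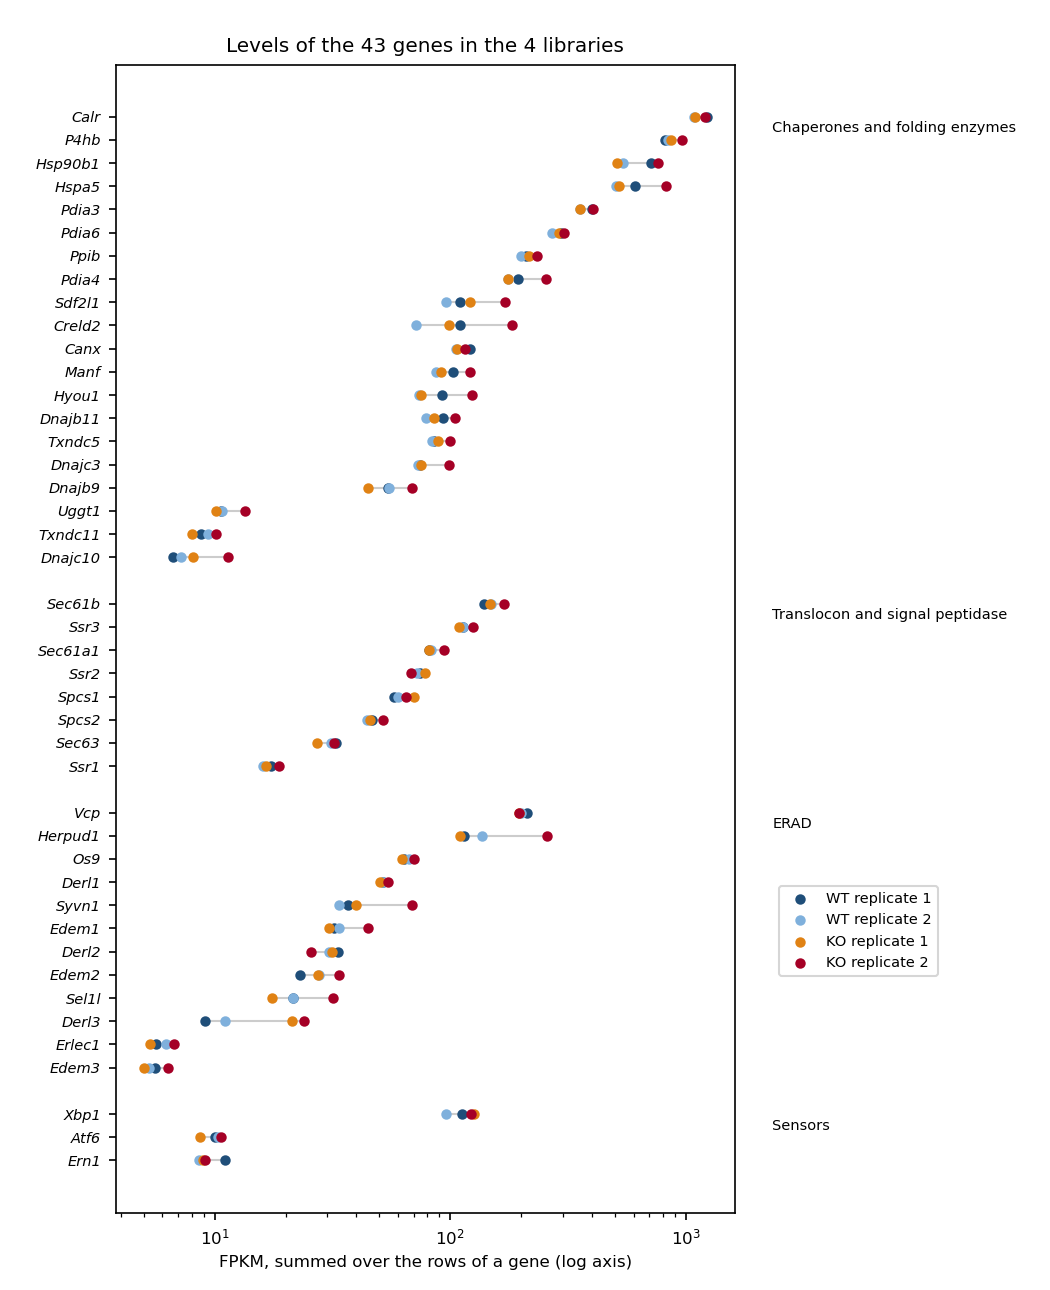
FPKM on a log axis for each of the 43 genes (rows, by role and falling mean) in the 4 libraries (points, joined by a grey line). KO replicate 2 is the rightmost point for 34 genes. Levels run from 5.55 FPKM for Edem3 to 1151 FPKM for Calr.

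The translocon and signal peptidase genes had small differences from WT in both KO libraries, but most were higher in KO replicate 2. That library was above both WT libraries for 6 of the 8 (41.6% of all genes). The median distance of the 8 from the WT mean was −0.0022 for KO replicate 1 but 0.15 for KO replicate 2, against 0.01 and 0.02 for all genes. None of the 8 passed, 6 had a positive difference, and the log2 differences ran from −0.11 to 0.19. Spcs1, a signal peptidase subunit, measured 57.9 and 60.2 FPKM in WT against 70.3 and 65.2 in KO (log2 difference 0.19, SE 0.11, limma adjusted p = 0.712). It was the only one of the 8 without overlap, while 22.4% of all genes were higher and 16.4% lower in both KO libraries. Sec61b, the small beta subunit of the channel and the most abundant of the list, measured 139 and 148 FPKM in WT against 148 and 170 in KO. Sec61a1, the pore itself, measured 81.4 and 82.8 FPKM in WT against 81.0 and 93.9 in KO. Sec63, which couples the channel to BiP, measured 32.7 and 31.2 FPKM in WT against 27.1 and 32.2 in KO, the lowest difference of the list (−0.11, adjusted p = 0.863). Of the translocon-associated subunits, Ssr1 measured 17.3 and 16.1 FPKM in WT against 16.5 and 18.7 in KO. Ssr2 and Ssr3 had group means of 73.4 and 113 FPKM in WT against 73.1 and 117 in KO, and Spcs2 had 45.5 and 48.7. No gene of this role lay 1.5-fold from the WT mean in either KO library.

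Among the 12 ERAD genes, Derl3 stood out in both KO libraries. Derl3 (chromosome 10, 75893398 to 75895941) encodes derlin-3, a membrane protein through which glycoproteins leave the ER and a target of spliced XBP1. It measured 9.07 and 11.1 FPKM in WT against 21.2 and 23.9 in KO, or 10.1 ± 1.43 against 22.6 ± 1.92 (SD, n = 2 each), a 2.24-fold higher mean in KO. Both KO libraries were above both WT libraries, and the gap between the groups was wider than the spread within either. The log2 difference was 1.09 (SE 0.13), with an unadjusted p of 1.82e-04 and a limma adjusted p of 0.112, so that it did not pass over all genes. The adjusted p was 0.00787 without KO replicate 1, 0.0265 without KO replicate 2, 0.945 without WT replicate 1 and 0.551 without WT replicate 2, while the difference stayed between 0.96 and 1.23. That Derl3 differs in these libraries was known when it was included, so its value is a description.

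Derl3 is also abundant in secretory cells outside the liver. Of 16 pancreatic acinar markers 10 were at 0 in all 4 libraries, among them Cpa1, Cpb1, Ctrb1, Pnlip and Prss2. The sum of the list, 17.0 and 14.0 FPKM in WT against 25.7 and 15.2 in KO, was almost all Cela1 (13.7 to 25.4 FPKM). The 9 plasma and B cell markers each had a mean under 1 FPKM and summed to 1.49 and 1.49 FPKM in WT against 1.69 and 2.67 in KO. Cholangiocyte markers were higher in both KO libraries, as Derl3 was: the 8 genes summed to 25.6 and 23.8 FPKM in WT against 50.5 and 41.9 in KO. Most of that sum was Spp1, 4 of the 8 were higher in both KO libraries, and 5 had a mean under 1 FPKM. The part of these cells in the Derl3 difference was not tested. The other derlins overlapped between the groups. Derl1 measured 51.7 FPKM in WT replicate 1 and 2 against 50.4 and 54.2 in KO, and Derl2 measured 33.5 and 30.5 FPKM in WT against 31.6 and 25.7 in KO. Derl3 was the lowest of the 3 family members in WT and stayed below Derl1 and Derl2 in KO.

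Herpud1, which encodes the stress-induced organizer HERP of the ubiquitin ligase complex, differed between the KO libraries more than any other of the 43. It measured 114 and 136 FPKM in WT against 110 and 257 in KO, 2.33-fold more in KO replicate 2 than in KO replicate 1 (group log2 difference 0.44, SE 0.38, limma adjusted p = 0.82). KO replicate 1 was below and KO replicate 2 above both WT libraries. Syvn1, the ubiquitin ligase HRD1, measured 36.9 and 33.7 FPKM in WT against 39.9 and 68.8 in KO (0.56, SE 0.25, adjusted p = 0.644). Its partner Sel1l measured 21.6 and 21.5 FPKM in WT against 17.5 and 31.7 in KO. Both genes of the ligase pair were thus highest in KO replicate 2, but only Syvn1 was above WT in KO replicate 1 as well. The excess of Syvn1 in KO replicate 2 came with the row NM_028769, at 24.0 and 20.8 FPKM in WT, 22.3 in KO replicate 1 and 53.3 in KO replicate 2. The row NM_001164709, at 12.8 and 12.9 FPKM in WT against 17.6 and 15.5 in KO, was higher in both KO libraries.

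The mannosidase-like genes that mark glycoproteins for ERAD differed among themselves. Edem1 measured 32.2 and 33.9 FPKM in WT against 30.5 and 44.6 in KO, Edem2 measured 22.9 and 27.6 FPKM in WT against 27.3 and 33.8 in KO, and Edem3, the lowest of the 43 genes, had means of 5.43 FPKM in WT and 5.67 in KO. Edem1 and Edem3 were lowest in KO replicate 1, and all 3 were highest in KO replicate 2. All 3 overlapped between the groups. Vcp, the ATPase that extracts proteins from the membrane, measured 211 and 199 FPKM in WT against 196 in KO replicate 1 and also in KO replicate 2 (log2 difference −0.06, SE 0.11, limma adjusted p = 0.92). It was the single gene below WT in both KO libraries, by a margin within the spread of WT. The lectins Os9 and Erlec1 had KO means of 66.2 and 5.99 FPKM against WT means of 65.3 and 5.93 FPKM.

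**Figure D4:**
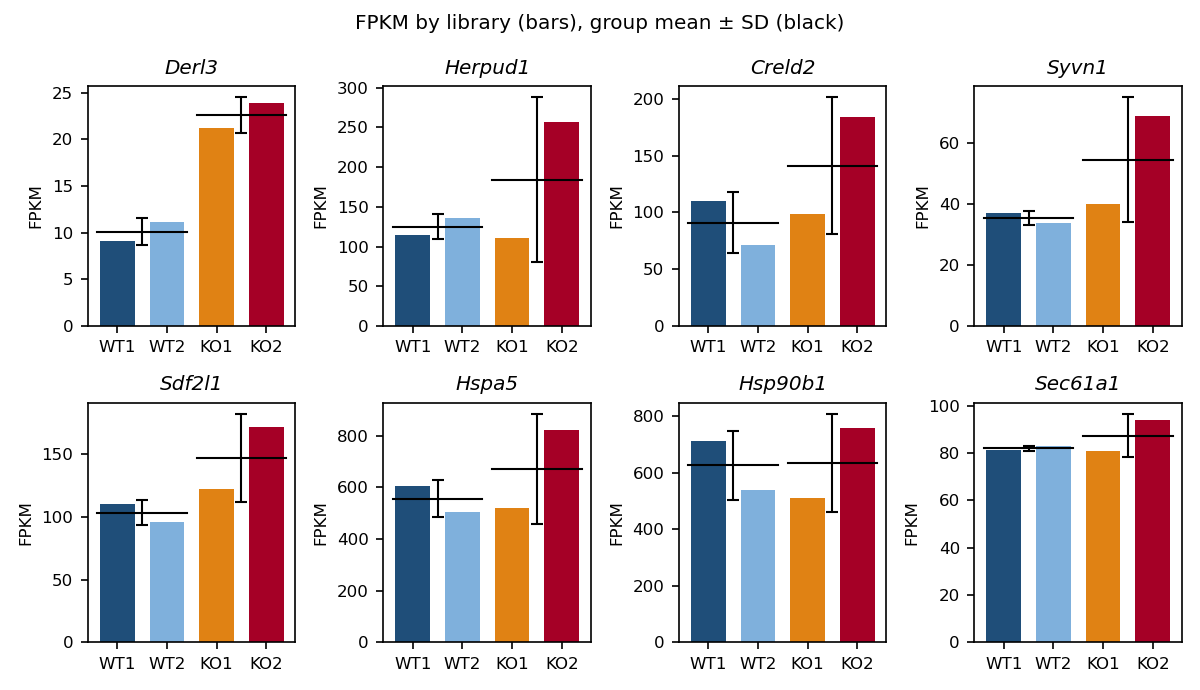
FPKM (y axis, from 0) of 8 genes by library (bars), with the mean ± SD of each group in black (n = 2 each). Derl3 is high in both KO libraries, while Herpud1, Creld2, Syvn1, Sdf2l1, Hspa5 and Hsp90b1 have their highest bar in KO replicate 2.

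The sensor genes did not pass. Ern1, which encodes IRE1, measured 11.1 and 8.55 FPKM in WT against 8.89 and 9.11 in KO (log2 difference −0.11, limma adjusted p = 0.891). Atf6 measured 10.1 and 10.4 FPKM in WT against 8.70 and 10.6 in KO (−0.08, adjusted p = 0.907). Xbp1 (chromosome 11, 5520641 to 5525993) measured 112 and 96.0 FPKM in WT against 126 and 123 in KO, higher in both KO libraries (0.26, SE 0.12, adjusted p = 0.659). Xbp1 was 1 of 6 genes of the set on chromosome 11, which also carries Srebf1, and the differences of those 6 lay between −0.16 and 0.26.

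The sum of Xbp1 hides opposite differences of its rows. By RefSeq naming, which the files themselves do not state, NM_013842 is the mRNA before IRE1 cutting and NM_001271730 the spliced mRNA, and the reference annotation places both on the same GENCODE transcript. The 26 bases that IRE1 removes lie in exon 4 at chr11:5524282-5524307 (plus strand, GRCm38) and are shown in capitals with 20 bases on either side (chr11:5524262-5524327), because they are what tells the forms apart.
Xbp1: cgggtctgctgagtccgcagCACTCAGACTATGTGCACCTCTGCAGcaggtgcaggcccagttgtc
The unspliced row measured 73.6 and 73.8 FPKM in WT against 104.8 and 106.5 in KO (log2 difference 0.51, SE 0.10, unadjusted p = 0.00315, limma adjusted p = 0.496 over 11494 rows). The spliced row measured 38.2 and 22.1 FPKM in WT against 21.6 and 16.2 in KO (−0.61, SE 0.29, unadjusted p = 0.0879, adjusted p = 0.733). It made up 34.2% and 23.1% of the Xbp1 sum in WT against 17.1% and 13.2% in KO, without overlap and lowest in KO replicate 2, the library in which Hspa5, Herpud1 and Syvn1 were highest. The difference of the spliced row was −0.23 with WT replicate 1 left out and −0.99 with WT replicate 2 left out. Neither row passed, and the row fit was chosen after these values were seen. How the deposited program assigned fragments between forms that differ by 26 bases is not given in the sources used here, and its part in the split was not tested.

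**Figure D5:**
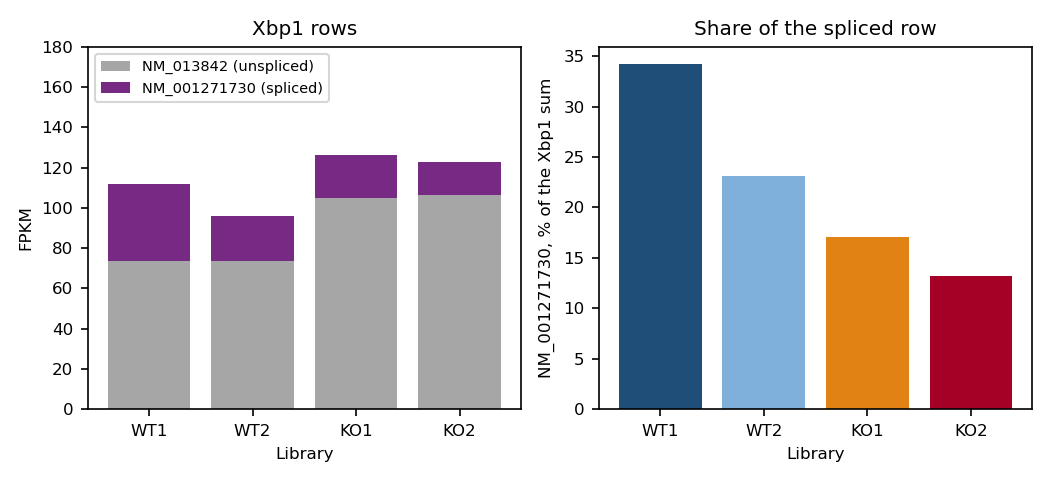
Left, FPKM of the Xbp1 rows stacked by library. Right, the share of the spliced row in percent of the Xbp1 sum, which is 34.2% and 23.1% in WT against 17.1% and 13.2% in KO.

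The genes with an ERSE or ERSE-II in the promoter window were described beside those without. The 11 genes with either element had a median difference of −0.0050 in KO replicate 1 and 0.42 in KO replicate 2 relative to the WT mean, from 0.03 to 1.18 in the latter. The 25 genes with a window but neither element had medians of −0.06 and 0.20, from −0.30 to 0.73 in KO replicate 2. Of the genes 1.5-fold up in KO replicate 2, Derl3, Creld2, Syvn1 and Herpud1 carry an element, and Sdf2l1 and Dnajc10 do not in these windows. Calr and Canx carry the ERSE as well and had 1.05 and 1.02 times the WT mean in KO replicate 2. Genes with an element thus lay both near the WT mean and well above it in KO replicate 2. Their median level was 116 FPKM, against 55.7 FPKM for genes with a window but neither element. The part of the element in these differences was not tested.

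Genes of the pathway beyond these 43 gave no call either. Of 107 genes 104 were tested, 0 passed limma in either direction, and 6 were higher (4.5% of all genes) and 0 lower (3.25% of all genes) at an unadjusted p under 0.05. Their median log2 difference was 0.06, with both KO libraries above both WT libraries for 36 (22.4% of all genes) and below for 8 (16.4% of all genes), and a median of 0.02 for all genes. Their median distance from the WT mean was 0.03 for KO replicate 1 but 0.14 for KO replicate 2. On the log2(FPKM + 1) scale 2 of the 104 were 1.5-fold higher in KO replicate 2 (2.71% of all genes). That scale understates low genes, so Yod1 and Trib3, at 1.94 and 1.67 times the WT mean in FPKM there, were not counted. Man1b1, the ER mannosidase that times ERAD, measured 8.35 and 8.25 FPKM in WT against 10.6 and 11.7 in KO (0.38, SE 0.11, limma adjusted p = 0.469). Sdf2, the constitutive relative of Sdf2l1, measured 26.4 and 26.2 FPKM in WT against 32.9 and 31.8 in KO (0.29, adjusted p = 0.57), and Fkbp7, an ER prolyl isomerase gene, measured 2.04 and 2.05 FPKM in WT against 3.12 and 2.74 in KO. These 3 genes were higher in both KO libraries, and their choice by smallest p favours groups that do not overlap. Fkbp11, of the same family, measured 23.0 and 25.2 FPKM in WT against 26.6 and 35.5 in KO.

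For protein entry, Srp9 of the signal recognition particle measured 54.1 and 59.8 FPKM in WT against 63.9 and 71.9 in KO, and Krtcap2 of the oligosaccharyltransferase measured 116 and 109 FPKM in WT against 126 and 135 in KO. Both were higher in each KO library. Tusc3, another oligosaccharyltransferase subunit, went the other way, with 7.82 and 6.79 FPKM in WT against 5.83 and 6.11 in KO. For ERAD, Yod1, a deubiquitinase, measured 1.23 and 1.03 FPKM in WT against 1.44 and 2.19 in KO, and Ubxn6, a VCP cofactor, measured 18.9 and 21.9 FPKM in WT against 25.1 and 24.9 in KO. Both ERAD genes were higher in each KO library. Of the stress response genes, Ddit3, which encodes CHOP, measured 9.27 and 6.19 FPKM in WT against 10.1 and 12.2 in KO (0.49, SE 0.19, limma adjusted p = 0.627). Creb3 measured 21.6 and 19.8 FPKM in WT against 23.5 and 25.6 in KO. Atf4, the factor downstream of PERK, measured 56.9 and 58.6 FPKM in WT against 74.9 and 61.2 in KO, with its highest value in KO replicate 1. Each of these 8 genes had groups that did not overlap, which their choice by smallest p favours, and none passed. Of the 15 stress response genes tested, 4 were higher (22.4% of all genes) and 2 lower (16.4% of all genes) in both KO libraries. The 2 lower ones, named after their values were seen, were Eif2ak3, which encodes PERK, at 5.68 and 5.13 FPKM in WT against 4.35 and 4.88 in KO (−0.19, limma adjusted p = 0.733), and Wfs1, which encodes the ER membrane protein wolframin, at 6.16 and 5.70 FPKM in WT against 4.39 and 5.57 in KO (−0.22, adjusted p = 0.735).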

How the data were processed

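The authors deposited FPKM in 1 table, whose rows are RefSeq transcripts and whose columns are the 4 libraries, per the file headers. Bowtie, TopHat and the mm10 build are named in the submitters' processing notes, while the program behind FPKM, its gene models and strandedness were not given in the sources used here. Groups and replicate numbers came from the sample titles. The table held 33170 rows, and 8874 were at 0 in every library. The depth of each library was estimated as the one that put most low values of single-row genes near whole fragments. It ran from 20550000 to 22750000 fragments, with 52.5% to 56% of these values within 0.1 of a whole fragment. The depth was chosen to raise that share, so the share does not test it and the depth is approximate. The values are FPKM, so no count test was run.

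Rows were summed per gene, 56 symbols turned into dates were restored by gene number, and log2(FPKM + 1) of genes with a mean of at least 1 FPKM was tested with limma 3.58.1 in R 4.3.3 (intensity trend, Benjamini-Hochberg adjustment over 9820 genes, threshold 0.05). The test was checked on data simulated from its own variance model with independent noise in each library. That check does not cover a shift of a library shared by many genes. Log2 differences (KO minus WT) use that scale, which understates low genes. An exact permutation test (2-sided) has p = 0.333 as its smallest value at 2 against 2, so none was used. A gene was past the fold where it lay 1.5-fold from the WT mean of log2(FPKM + 1) values and outside the WT range. Named were Srebf1, Derl3, Hspa5, the sensors, in each role the 4 smallest p and the highest and lowest mean, every member past the fold, and the 3 smallest p of each list of other pathway genes. Further members are given for completeness. The members and lists were chosen with earlier results of these data known. Alternatives were other pseudocounts, filters, scalings, no trend, the leading transcript row, a replicate block, each library left out and a threshold of 0.1. Marker lists of hepatocytes, 7 other cell types and the acute phase were summed. Endothelial sums ran from 63.0 to 81.6 FPKM, neutrophil sums from 7.03 to 25.7, hepatocyte sums from 15650 to 18160, stellate sums from 91.1 to 107 and cholangiocyte sums from 23.8 to 50.5. Genes of the set overlap others in places, such as Hspa5 with Rabepk (4.62 to 5.52 FPKM) and Syvn1 with Mrpl49 (17.4 to 20.7 FPKM), and reads there could not be told apart without strand. The result of a further motif search is not reported here. Summaries were made in python 3.11.15 (pandas 2.3.3, numpy 2.4.6) and plots in matplotlib 3.10.9.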

Additional observations from a re-analysis of the deposited data

How the results depend on the processing

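Over all genes limma called 7, and it called 11 with a pseudocount of 0.1, 0 without a filter, 3 with a minimum of 5 FPKM, 4 with quantile scaling and 4 with the leading transcript row of each gene. With the replicate number as a block 19 genes were called, 1 of them (Derl3, adjusted p = 0.0337) among the 43. Replicate numbers do not pair these libraries by any label, and the deviations of same-numbered libraries correlated at 0.167 across genes. Leaving out each library in turn gave 1 to 306 calls over all genes and 0 to 5 among the 43, 11 to 36 of the 43 higher in KO without overlap, and a median difference from −0.052 to 0.21. The highest of these came without KO replicate 1, and the lowest median without KO replicate 2. Without KO replicate 1, 36 of the 43 lay above both WT libraries (41.6% of all genes). Without KO replicate 2, 11 did (39.1% of all genes). Srebf1 stayed between −2.96 and −2.68, but had an adjusted p of 0.104 without a filter (−2.82). Calr turned to 0.030 with quantile scaling. Leaving out 1 library or another turned the sign of 26 of the 43 genes: 20 without KO replicate 2, 5 without KO replicate 1, 6 without WT replicate 1 and 3 without WT replicate 2. Among those that the naming rule picked, they were Calr (−0.10 to 0.091), Atf6 (−0.21 to 0.051), Edem3 (−0.10 to 0.19), Ern1 (−0.28 to 0.067), Herpud1 (−0.17 to 1.04), Hspa5 (−0.090 to 0.57), Sec63 (−0.23 to 0.0094) and Ssr1 (−0.014 to 0.16). A library left alone in its group is assumed to vary like the other group. The Xbp1 row fits were added after seeing the data. The cause of these shifts was not tested, and 2 libraries a group limit every call.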
